A study of Rattus norvegicus with 6 samples.

Results

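Genes that mark neural stem cells and the immature neurons derived from them were examined in hippocampal RNA of trained and sedentary rats. The members are 10 genes chosen by name: Sox2, Nes, Eomes, Neurod1, Sox11, Prox1, Dcx, Calb2, Tubb3 and Ncam1. Probes were taken when the gene name on the array, without a suffix for a predicted or mapped gene, equalled a member. By this rule 8 of the 10 genes had a probe, with 9 of 41012 probes in all, on an array that carries 35561 gene names. Sox2 and Eomes had no probe of that name, and a probe for each was found under an older name and is described apart.

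Male Wistar rats, 11 weeks old, were trained on a treadmill for 6 weeks in 60 min sessions, 5 times a week. The mild exercise group (ME) ran at 15 m/min, the intense exercise group (IE) at 40 m/min, and the sedentary control group (CONT) rested on the treadmill. The 6 weeks included a period in which the running groups were habituated to the treadmill with slight electric shocks, and this period was longer for IE. After it, ME rats ran without shocks, while some IE rats were sparingly given further ones. IE rats that refused to run were excluded. Tissue was taken 1 to 2 days after the last session, with labels and methods differing on the time. Hippocampal RNA of 5 rats was combined into 1 pool per group, and each pair of pools was hybridized on 2 arrays with the dyes Cy3 and Cy5 exchanged, so 6 arrays held 3 pools. Because each group is 1 pool, the spread between rats was not measured. Every error given here is technical: the spread between arrays of the same RNA, the spread between spots of 1 array, or the SE of a fit to these arrays.

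New granule neurons are made throughout life in the subgranular zone of the dentate gyrus. Stem cells that carry SOX2 and nestin divide and give rise to intermediate progenitors marked by EOMES. Their daughters switch on NEUROD1, SOX11 and PROX1, pass through a doublecortin-positive stage and a short calretinin-positive stage, and carry class III beta-tubulin and polysialylated NCAM while they extend their processes. The RNA was taken from the hippocampus as a whole, where several of these genes are also made by other cells: calretinin by interneurons, PROX1 and NEUROD1 by mature granule neurons, class III beta-tubulin and NCAM by most neurons, and SOX2 by astrocytes. In such RNA, fewer cells of a type and less RNA per cell cannot be told apart.

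Each probe is an oligonucleotide of 60 bases. The first 30 bases are shown as the array file gives them, to make clear which stretch each ratio comes from, with the position in the rat genome build rn3, lower coordinate first. The file did not state a strand for these letters.
Sox2 (under RGD1565646), chr2:120914687-120914746: gcggcggaaaaccaagacgctcatgaagaa
Nes (dim probe), chr2:180010769-180010828: ggctgagcaagggaggtgagatcctcctga
Nes (bright probe), chr2:180010975-180011034: atttatctgacccttcatctcagcctgctg
Neurod1, chr3:62121479-62121538: atatgtatttattgtcgttactgcctttgg
Sox11, chr6:45145224-45145283: ccgaggatgccgacgacctcatgttcgacc
Prox1, chr13:106612239-106636223: actacaacaaagcaaacgactttgaggttc
Dcx, chrX:34725493-34725548: aaaggcagtgtttcaagaagacactctctt
Calb2, chr19:40028075-40028135: caattccaggttctgtccaccggcttgcta
Tubb3, chr19:53756325-53756384: cttaccttcctaccagctcttcagggcacc
Ncam1, chr8:52844977-52845972: ggctgctttctcgaaagatgagtctaaaga
The positions of the probes for Prox1 (23985 bases) and Ncam1 (996 bases) span more genome than the probe has bases. The 2 probes for Nes start 206 bases apart. The Ncam1 probe was printed 10 times on each array and the others once. The array file did not say whether a position is exonic, intronic or in a UTR.

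No member was called in any comparison. A call required a Cy5 over Cy3 ratio of 1.5 or more with 1 dye orientation, a ratio of 0.75 or less with the exchanged dyes, and the scanner software's p below 0.01 each time. By the same rule, 0.122% of all probes were called for ME vs CONT, 0.0293% for IE vs CONT and 0.0732% for IE vs ME, against 0 of 9 member probes. Among member probes that the software marked as well above background in each of the 4 readings of a comparison, the largest mean difference was 1.16-fold. Software p on single arrays for these probes was 0.128 or higher. Of the 54 ratios of member probes on single arrays, 2 lay outside the range of 0.75 to 1.5, both of them for Prox1 in IE vs ME, and they pointed in opposite directions between the pools.

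The medians of the members lay close to those of the array. For ME vs CONT, the 9 member probes had a median log2 ratio of -0.0071, with values from -0.073 to 0.11, and the median over all 28896 probes well above background was -0.0025. For IE vs CONT, the median was -0.030 (range -0.091 to 0.049), against 0.0018 over 28744 probes. For IE vs ME, 8 member probes were well above background and their median was 0.013 (range -0.12 to 0.22), against 0.0028 over 25803 probes.

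**Figure D1:**
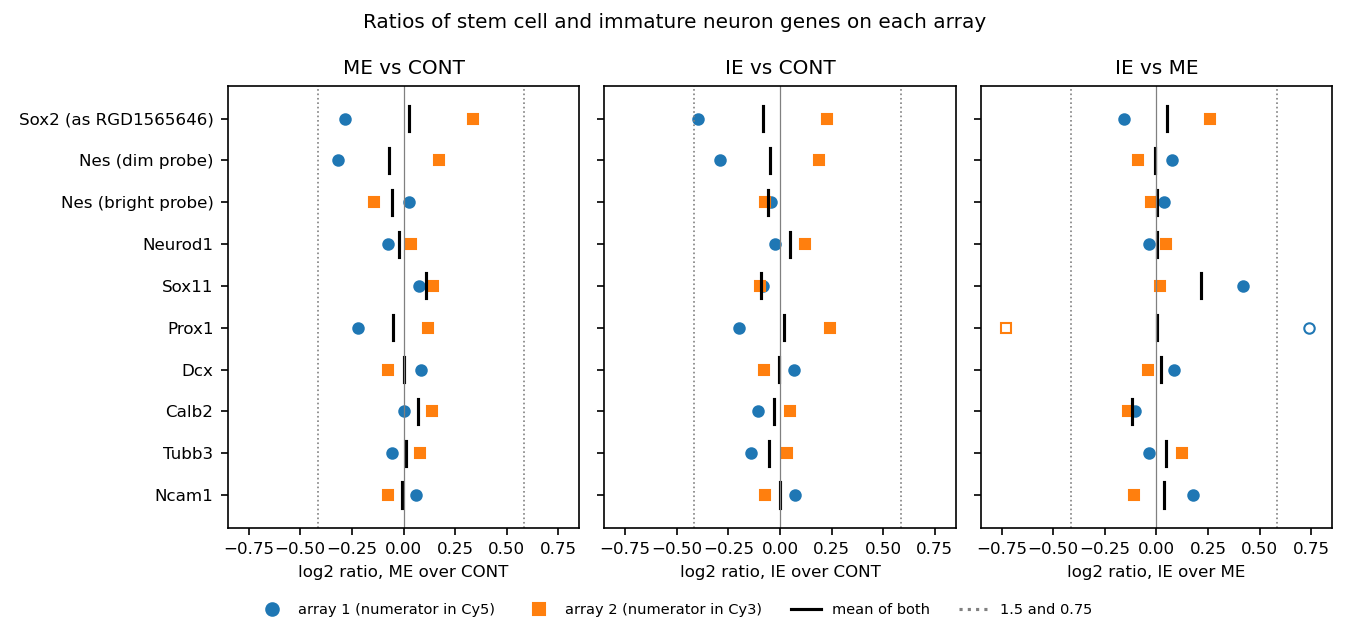
Log2 ratio of each member probe on array 1 (circles) and array 2 (squares) of each dye swap, with the mean as a black bar; open symbols mark a probe not well above background in every reading, dotted lines mark ratios of 1.5 and 0.75, which are the limits for calls as they apply to array 1 (they are mirrored for array 2), and Eomes is left out. In most rows the 2 arrays lie on opposite sides of 0 with a mean near 0, while Sox11 in each panel and Calb2 in IE vs ME are among those with both arrays on 1 side.

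The 2 arrays of a dye swap mostly pointed opposite ways once turned to the same pools, for the members and for the array as a whole. Over all probes well above background, the correlation across probes of the 2 turned arrays was -0.518 for ME vs CONT, -0.648 for IE vs CONT and -0.701 for IE vs ME. The same dye was therefore brighter on both arrays for many probes, and this dye part cancels in the mean of the pair. It does not cancel in the SD of the 2 arrays, so that SD also holds the dye part and is not the error of the mean. Signs matched between both arrays for 28.6% of probes in ME vs CONT, 28.2% in IE vs CONT and 26.7% in IE vs ME. Among the members, both arrays had 1 sign in 2 of 9, 2 of 9 and 2 of 8 probes, respectively. The dye part was reproducible on the slide that carried both comparisons with CONT, with a correlation of 0.836 across 28105 probes between the 2 pairs. For the members the median size of the dye part was 0.068, 0.074 and 0.072 on the log2 scale in the 3 comparisons, and that of the difference between the pools was 0.051, 0.049 and 0.028.

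**Figure D2:**
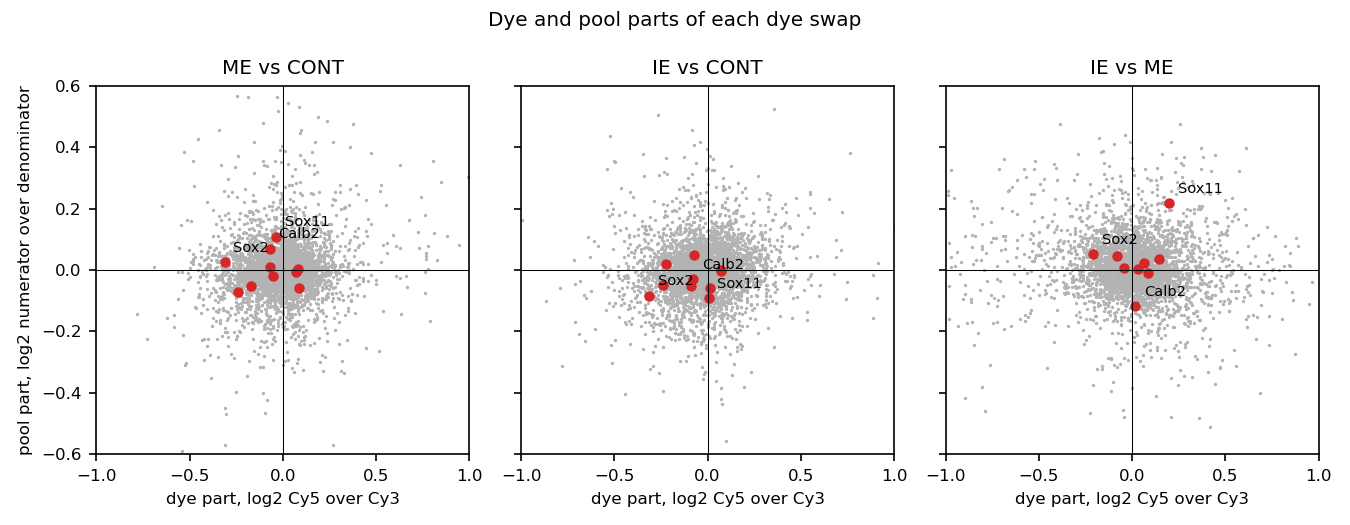
Dye part (the mean Cy5 over Cy3 ratio of both arrays, x axis) and pool part (the mean ratio of numerator over denominator, y axis) of each dye swap on the log2 scale, for member probes well above background (red, with Sox2 under its other name) and for 4000 randomly drawn probes (grey; points beyond the axes are not shown). Most members spread along the dye axis, with Sox2 farthest to the left in each panel, and stay within 0.12 of 0 on the pool axis, apart from Sox11 in IE vs ME at 0.22.

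Since the dye part repeats, it was also estimated jointly. A single limma model of all 6 arrays, which held the ME and IE effects and 1 dye term per slide, gave each ratio with a standard error (SE) and a 95% interval. These intervals rest on 2 residual degrees of freedom, moderated across all probes, and cover the error of the arrays only. In this fit the interval left out 0 for 12.3%, 11.9% and 13.5% of all probes well above background for ME over CONT, IE over CONT and IE over ME. Among the members it did so in 3 of 26 cases, all of them for Calb2, which is 1 probe of 9, 9 and 8 and thus close to the share of the array.

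Among the stem cell genes, Nes encodes nestin, the intermediate filament of neural stem cells. Its bright probe had processed signals (after background subtraction and dye normalization by the software) from 526.5 to 687.8 on the slide with CONT. The log2 ratio of ME over CONT was 0.027 and -0.14 on the 2 arrays, with a mean of -0.058 ± 0.12 (SD of 2 arrays). That of IE over CONT was -0.043 and -0.073, with a mean of -0.058 ± 0.022. Both means lay slightly below 0, and in IE vs CONT both arrays did. IE over ME was 0.035 and -0.027, with a mean of 0.0041 ± 0.044. In the joint fit, the bright probe was at -0.059 for ME and -0.057 for IE with an SE of 0.024, and intervals from -8.57% to 0.74% and from -8.39% to 0.93% of the CONT level included no change.

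The dim probe for Nes, with signals of 67.1 to 89.0 on the same slide, gave similar means with a wider spread. Its log2 ratio of ME over CONT was -0.32 and 0.17 (mean -0.073 ± 0.34), that of IE over CONT -0.29 and 0.19 (mean -0.050 ± 0.34), and that of IE over ME 0.074 and -0.091 (mean -0.0085 ± 0.12). The means of the 2 probes differed by less than the SD of the arrays in each comparison, while their dye parts differed (-0.24 and 0.085 in ME vs CONT).

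Sox2 encodes a transcription factor that maintains neural stem cells. The probe named RGD1565646, which RefSeq (GRCr8) lists as a synonym of Sox2, was well above background in all 12 readings. ME over CONT was -0.28 and 0.34 (mean 0.026 ± 0.44), IE over CONT was -0.40 and 0.23 (mean -0.084 ± 0.44), and IE over ME was -0.16 and 0.26 (mean 0.052 ± 0.29). In CONT, the processed signal of this probe was 2284.6 and 2451.5 in Cy3 and 1844.4 and 1888.2 in Cy5, so the same pool read higher in Cy3 than in Cy5. That dye part cancels in the mean of each pair. Measured directly, IE over ME was 0.052, while the ratios against CONT gave -0.11. In the joint fit, which uses both routes, the ratios were -0.028, -0.030 and -0.0019 with an SE of 0.041.

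Eomes (Tbr2) encodes a T-box factor of intermediate progenitors. Its probe, named LOC316052 on the array and matched to Eomes by its gene ID in RefSeq, was well above background in 1 of 12 readings. On the ME vs CONT arrays the software set both log ratios to 0. IE over CONT was -2.0 and 2.1, and IE over ME was -2.6 and 2.8. In the latter comparison the software p was 0.0016 and 0.0035. On each of these 4 arrays Cy3 read higher than Cy5 whichever pool it carried, so these values show no difference between the pools, and no fold is given for Eomes. Of the members and their older names, Eomes was the gene whose level could not be read on these arrays.

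Neurod1 encodes a basic helix-loop-helix factor needed for the survival and maturation of new granule neurons. Processed signals were 994.5 (ME) and 1047.2 (CONT) on array 1 and 1006.4 and 983.1 on array 2 of ME vs CONT. The log2 ratio of ME over CONT was -0.074 and 0.034 (mean -0.020 ± 0.077), that of IE over CONT was -0.023 and 0.12 (mean 0.049 ± 0.10), and that of IE over ME was -0.036 and 0.046 (mean 0.0051 ± 0.058). The readings of the pools overlapped in each comparison. The joint fit placed Neurod1 between -3.76% and 4.08% of CONT for ME and between -1.97% and 6.02% for IE.

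Sox11 encodes an HMG-box factor that takes part in the commitment of progenitors to neurons. It was the member with the largest mean in every comparison, and one of the dimmest. On the slide with CONT its raw signal was only 1.36 to 2.07 times the local background, with processed signals from 25.6 to 42.2. ME over CONT was 0.074 and 0.14 (mean 0.11 ± 0.049) and IE over CONT was -0.085 and -0.098 (mean -0.091 ± 0.0095), so each pair of arrays had 1 sign and the signs were opposite. Measured directly, IE over ME was 0.42 and 0.017 (mean 0.22 ± 0.28), higher in IE, while the ratios against CONT gave -0.20. The 2 IE vs ME arrays also read the same pools at different levels: 53.5 (IE) and 40.1 (ME) on array 1, and 133.5 and 131.9 on array 2. In the joint fit, which uses both routes, Sox11 was at -0.030 for ME, 0.048 for IE and 0.078 for IE over ME with an SE of 0.12, and the signs of ME and IE against CONT turned.

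Prox1 encodes a homeobox factor that gives granule neurons their identity. Its probe was dim, at 1.30 to 1.60 times the local background on the slide with CONT. ME over CONT was -0.22 and 0.12 (mean -0.051 ± 0.24), and IE over CONT was -0.20 and 0.24 (mean 0.021 ± 0.31). On the IE vs ME arrays, Cy5 was well above background and Cy3 was not, whichever pool it carried, and the ratios were 0.74 and -0.73 (mean 0.0039 ± 1.0). No direction was shown for Prox1, and the joint fit left room for changes from -17.8% to 17.0% for ME and from -16.3% to 19.2% for IE.

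Dcx encodes doublecortin, a microtubule-binding protein of migrating and immature neurons and the usual marker of new neurons in the dentate gyrus. On the ME vs CONT arrays its processed signal was 2008.9 in ME and 1893.0 in CONT on array 1, and 1797.0 in ME and 1896.3 in CONT on array 2. On the IE vs CONT arrays it was 1949.4 in IE and 1857.3 in CONT, then 1807.6 and 1908.4. Whichever pool carried Cy5 read higher. ME over CONT was 0.086 and -0.078 (mean 0.0041 ± 0.12), IE over CONT was 0.070 and -0.078 (mean -0.0042 ± 0.10), and IE over ME was 0.086 and -0.042 (mean 0.022 ± 0.091). In the joint fit the Dcx ratios were -0.0060, 0.0059 and 0.012 with an SE of 0.012. The intervals ran from -2.81% to 2.04% for ME over CONT, from -2.01% to 2.88% for IE over CONT and from -1.60% to 3.31% for IE over ME. Among the members, only Calb2 had a smaller SE.

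Calb2 encodes calretinin, a calcium-binding protein of a short stage of immature granule neurons and of interneurons. It was lower in the IE pool than in the ME pool on both IE vs ME arrays, at 1292.0 against 1386.5 on array 1 and 1249.0 against 1371.9 on array 2. IE over ME was -0.10 and -0.14, with a mean of -0.12 ± 0.024. Through CONT the same ratio was -0.10. ME over CONT was 0.0020 and 0.14 (mean 0.070 ± 0.096), and IE over CONT was -0.11 and 0.046 (mean -0.030 ± 0.11). The joint fit gave 0.076 for ME over CONT, -0.036 for IE over CONT and -0.11 for IE over ME, with an SE of 0.011 and an interval of -9.46% to -5.49% for IE over ME. The sign was the same by both routes, but the size was far below the range used for calls, software p was 0.619 and 0.508, and 81.7% of all probes well above background had a mean of this size or smaller in IE vs ME. Interneuron genes, of which 9 of 10 were well above background, had a median of -0.037 in IE vs ME and ran from -0.13 to 0.085. Their part in the Calb2 value was not tested.

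Tubb3 encodes class III beta-tubulin, a cytoskeletal protein of neurons. Its raw signal was 62.4 to 164.16 times the local background on the slide with CONT, the highest among the members. ME over CONT was -0.057 and 0.080 (mean 0.011 ± 0.096), IE over CONT was -0.14 and 0.034 (mean -0.053 ± 0.12), and IE over ME was -0.035 and 0.13 (mean 0.045 ± 0.11). No pair of arrays had 1 sign. The joint fit intervals ran from -7.35% to 4.22% for ME and from -6.81% to 4.84% for IE.

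Ncam1 encodes the neural cell adhesion molecule, the carrier of polysialic acid on immature neurons. Its 10 spots per array show the error within an array. On the ME vs CONT arrays the spots averaged 0.061 ± 0.038 (SD of 10 spots) and -0.075 ± 0.054. On the IE vs CONT arrays they averaged 0.073 ± 0.028 and -0.071 ± 0.036. For IE vs ME the averages were 0.18 ± 0.046 and -0.11 ± 0.049. On each array nearly all spots lay on 1 side of 0, the side given by the dye. The means over both arrays were -0.0071 ± 0.096 for ME over CONT, 0.00070 ± 0.10 for IE over CONT and 0.035 ± 0.20 for IE over ME (SD of 2 arrays). The spots of 1 array thus spread by less than the swapped arrays differed.

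**Figure D3:**
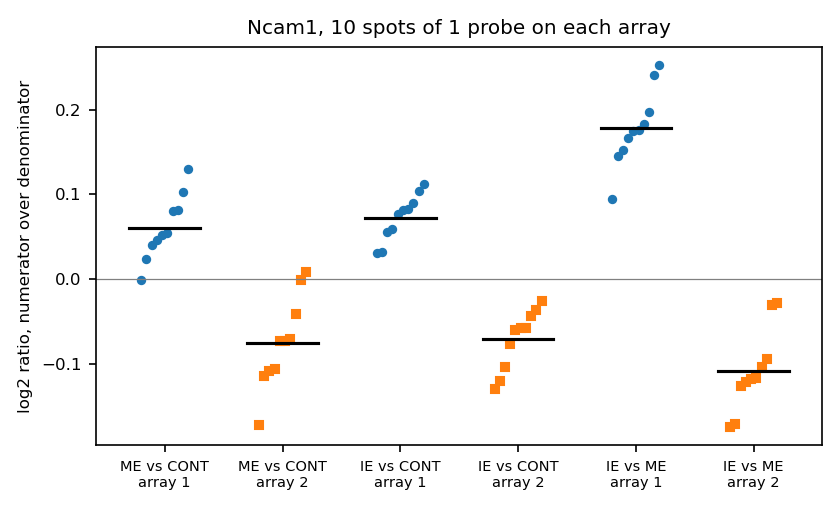
Log2 ratio of the 10 Ncam1 spots on each of the 6 arrays, with the numerator in Cy5 on array 1 (circles) and in Cy3 on array 2 (squares) and the mean as a bar. The spots of array 1 centre above 0 (0.061, 0.073 and 0.18) and those of array 2 below it (-0.075, -0.071 and -0.11) in each comparison.

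The 3 comparisons form a loop, so the ratio of IE over ME was available by 2 routes on separate arrays: measured directly, or as the difference of the ratios against CONT. For the 8 member probes well above background in all 12 readings, the routes differed by a median of 0.031 on the log2 scale, against 0.058 over all 24716 such probes. Calb2 differed by -0.018, the bright Nes probe by 0.0041, the dim one by -0.031, Dcx by 0.030 and Ncam1 by 0.027. Neurod1 differed by -0.065 and Tubb3 by 0.11, and Sox2, under its other name, by 0.16. Sox11 differed by 0.42, more than 98.8% of probes did. The sign of IE over ME was the same by both routes for Calb2, Ncam1 and Neurod1.

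**Figure D4:**
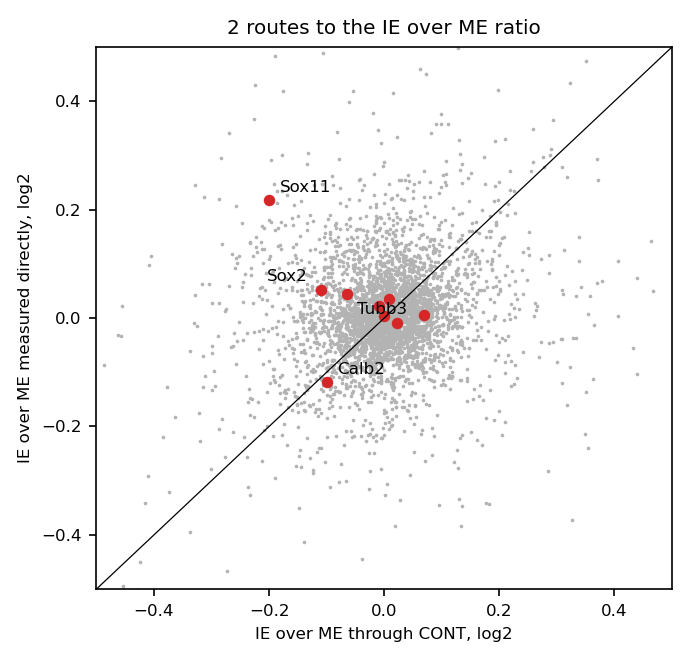
Log2 ratio of IE over ME through CONT (x axis) and measured directly (y axis) for member probes well above background in all 12 readings (red, with Sox2 under its other name) and 4000 randomly drawn probes (grey; points beyond the axes are not shown), with the line of equality. Calb2 lies on the line at -0.10 and -0.12, and Sox11 lies far from it at -0.20 and 0.22. Sox2 at -0.11 and 0.052 and Tubb3 at -0.065 and 0.045 lie off the line, and the other members lie near the origin.

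All 11 genes of the granule neuron list that had a probe were well above background in ME vs CONT and in IE vs CONT, and 10 were in IE vs ME. Many genes of this list are expressed by neurons in general, so their detection does not set the hippocampus apart from other brain tissue. The wider pathway was followed in 5 lists of known genes, matched by array name, older name or RefSeq record. No probe of these lists was called in any comparison. Of all probes, only 0.122% were called in ME vs CONT, 0.0293% in IE vs CONT and 0.0732% in IE vs ME. For lists of this size, the absence of calls is thus close to the share of the array. Neural stem cell genes had a median of 0.0040 in ME vs CONT (17 probes), 0.0057 in IE vs CONT (17) and -0.026 in IE vs ME (14). Proliferation genes had medians of 0.0073, -0.028 and -0.024 over 21, 19 and 16 probes. Genes of neuronal commitment and immature neurons had medians of -0.0062, -0.014 and 0.0041 over 24, 24 and 23 probes. Granule neuron genes had a median of 0.022 in ME vs CONT (17 probes) and 0.023 in IE vs ME (16 probes), and one within rounding of 0 in IE vs CONT (17 probes). The enzymes listed for polysialic acid synthesis had medians of -0.050, -0.064 and -0.10 over 2, 2 and 3 probes, with no probe of 1 sign on both arrays. In the comparisons with CONT the 2 probes were those of St8sia3 and St8sia4, and the St8sia2 probe was not well above background.

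Both arrays had 1 sign for a minority of the probes of these lists. Over all probes well above background the share was 28.6% in ME vs CONT, 28.2% in IE vs CONT and 26.7% in IE vs ME. In ME vs CONT, 2 of 17 neural stem cell probes were higher and 3 lower on both arrays, and in IE vs CONT 0 of 17 were higher and 3 lower. With so few probes, these counts show no direction for the list. Vim, the intermediate filament vimentin, was at 0.36 and 0.30 in ME over CONT (mean 0.33 ± 0.042), at -0.012 and -0.064 in IE over CONT (mean -0.038 ± 0.037) and at -0.32 and -0.35 in IE over ME (mean -0.34 ± 0.022). Msi1, an RNA-binding protein of stem cells, was at -0.46 and -0.24 in ME over CONT (mean -0.35 ± 0.16). In IE over CONT the Notch target Hes5 had a mean of -0.17 ± 0.23 and the lipid-binding Fabp7 of radial glia -0.057 ± 0.040. Their means in ME over CONT were similar, at -0.12 ± 0.15 for Hes5 and -0.067 ± 0.0001 for Fabp7. In IE over ME, Hes5 was at -0.11 ± 0.11. Of the 3 Sox9 probes well above background in that comparison, 1 was at -0.062 ± 0.038 and the others at -0.14 ± 0.23 and -0.044 ± 0.13. A further Sox9 probe was not well above background there.

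Of the proliferation list, which holds cyclins and replication factors, 1 of 21 probes was higher and 2 were lower on both arrays in ME vs CONT. The counts were 2 and 5 of 19 in IE vs CONT, and 1 and 2 of 16 in IE vs ME. Over the array, 28.6%, 28.2% and 26.7% of probes had 1 sign in either direction, and these small counts show no direction for the list. Cyclin D2 (Ccnd2) was at -0.14 and -0.046 in ME over CONT (mean -0.090 ± 0.063) and at -0.23 and -0.21 in IE over CONT (mean -0.22 ± 0.011). Measured directly, Ccnd2 was at 0.030 ± 0.047 in IE over ME, a sign opposite to that of the route through CONT. In ME over CONT, 1 probe of Ccnb1 had a mean of -0.15 ± 0.0039 and another of 0.036 ± 0.10, and Cdk1 had a mean of 0.14 ± 0.19. In IE over CONT, Top2a, the topoisomerase of dividing cells, had a mean of -0.32 ± 0.13 on 1 probe and -0.17 ± 0.31 on another, and Mcm6, a subunit of the replicative helicase, had a mean of -0.26 ± 0.26. In IE over ME, Rrm2, of ribonucleotide reductase, had a mean of 0.40 ± 0.14, Tyms of -0.14 ± 0.054, and the 2 probes of Pcna of -0.052 ± 0.054 and 0.0079 ± 0.060. The Rrm2 probe was at 0.34 ± 2.1 in ME over CONT and -0.24 ± 1.9 in IE over CONT, so the route through CONT gave the opposite sign for IE over ME, as it did for Sox11. None of these probes was called. Mki67, the gene of the Ki-67 antigen, is on the list but had no probe well above background in all readings of any comparison, so it does not enter these values.

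In the list of neuronal commitment and immature neurons, the largest means with 1 sign were those of Cd24 (-0.11 ± 0.055, and -0.074 ± 0.092 for another probe) and Dpysl5 (-0.099 ± 0.078) in ME over CONT. In IE over CONT they were those of Igfbpl1 (0.25 ± 0.059), Nnat (-0.12 ± 0.072) and 1 of 4 Elavl4 probes (-0.096 ± 0.036), the other probes of which were at -0.0045, -0.0033 and 0.016. In IE over ME they were those of Neurog2 (0.087 ± 0.029) and 2 of 4 Elavl4 probes (-0.065 ± 0.025 and -0.060 ± 0.070), with the other Elavl4 probes at -0.15 ± 0.25 and -0.049 ± 0.13 and no single sign on their arrays. In the granule neuron list, 1 of 2 probes of Map2, a dendritic microtubule protein, was at -0.063 ± 0.059 in ME over CONT and -0.11 ± 0.052 in IE over CONT, and the other probe was at -0.086 ± 0.19 and 0.0045 ± 0.23. In IE over ME the 2 Map2 probes were at 0.13 ± 0.021 and 0.14 ± 0.19, in the same order. For the first of these Map2 probes, the route through CONT gave the opposite sign. The probes of Bcl11b did not give 1 direction in ME over CONT, at 0.047 ± 0.016 and -0.034 ± 0.26. In IE over ME they were at 0.20 ± 0.33 and 0.13 ± 0.030, in the same order. The first Bcl11b probe was at -0.043 ± 0.057 in IE over CONT, so for it the route through CONT also gave the opposite sign. The 4 probes of Calb1, which encodes calbindin of mature granule neurons, ran from -0.012 to 0.026 in ME over CONT and from -0.072 to 0.0043 in IE over CONT. Rasgrp1 was at -0.13 ± 0.15 in IE over CONT.

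Markers of tissue next to the hippocampus differed between the pools. These lists were chosen with earlier results of these data known, so their counts are not an independent test. Over the array, 28.6% of probes well above background had 1 sign on both arrays in ME vs CONT, in either direction. Of all probes, 0.122% were called in ME vs CONT, 0.0293% in IE vs CONT and 0.0732% in IE vs ME. Of the meninges list, 17 of 17 probes were higher on both arrays in ME vs CONT, with a median of 0.92, a range of 0.066 to 1.34 and 12 calls. In IE vs CONT the median was -0.011, with no call, and in IE vs ME it was -0.91 with 11 calls. Of the choroid plexus list, 7 probes were well above background in ME vs CONT with a median of 0.32 and 3 calls, and 6 in IE vs CONT with a median of 0.61. The list had 5 calls in IE vs CONT, of which 3 were among these 6 probes, while the probes of Kcnj13 and Tmem27 were not well above background in all readings. The choroid plexus transcript Ttr was at 0.91 ± 0.24 in ME over CONT and 2.5 ± 0.35 in IE over CONT. The cerebellum and thalamus lists had medians of 0.047 and -0.0020 in ME vs CONT, 0.0043 and 0.098 in IE vs CONT, and -0.088 and 0.0063 in IE vs ME, with a single call, the cerebellar receptor subunit Gabra6 in ME vs CONT, whose probe was not well above background in all readings. Single probes lay farther from 0. Cerebellum probes ran from -0.0115 to 0.54, -0.072 to 0.12 and -0.56 to -0.0255 in the same order of comparisons. Thalamus probes ran from -0.51 to 0.36, -0.059 to 0.17 and -0.28 to 0.66. In ME vs CONT, 5 of 10 cerebellum probes were higher on both arrays and 0 were lower. The cerebellum list and its median include Calb1 and Pvalb, which are also on the granule neuron and interneuron lists. Astrocyte, oligodendrocyte lineage, interneuron and endothelial lists had medians between -0.037 and 0.052 and no calls. The share of these tissues in the values of Vim, which meningeal cells also express, or of any member was not tested.

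**Figure D5:**
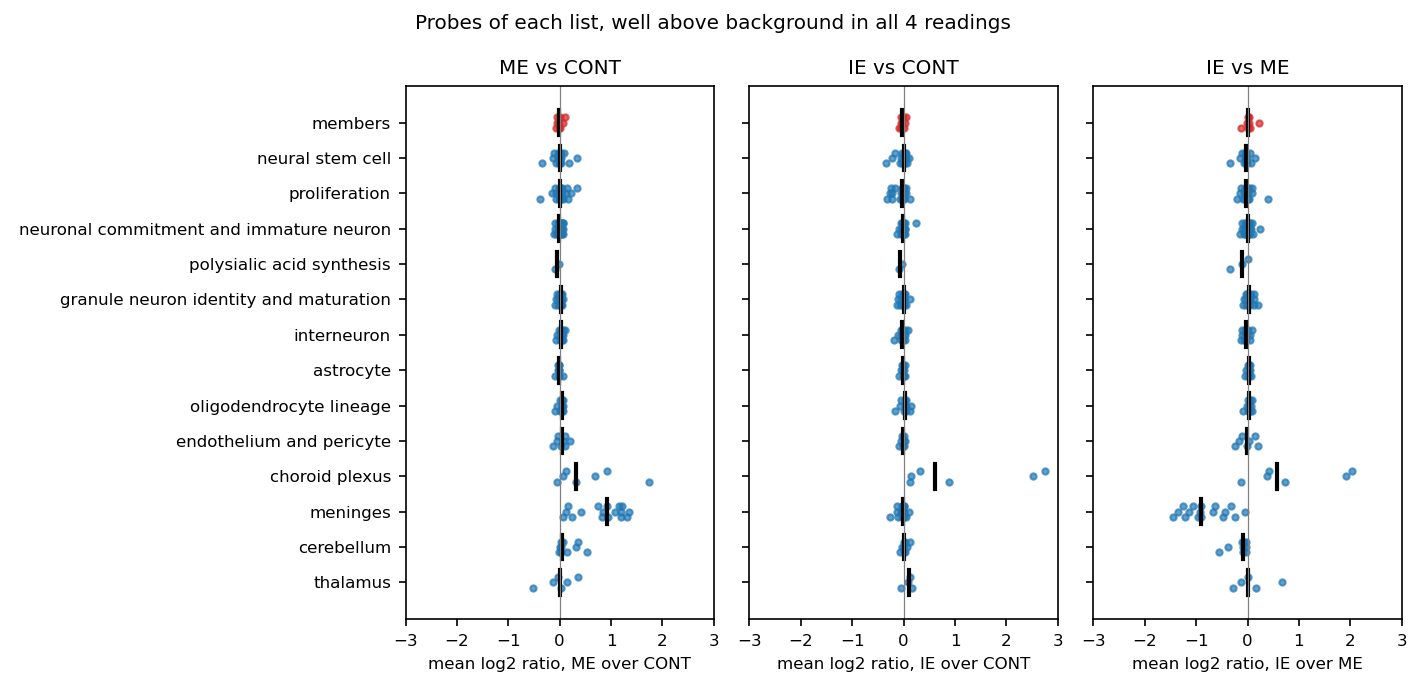
Mean log2 ratio of every probe well above background in all 4 readings of a comparison, for the members (red) and for 13 lists of marker genes (blue), with the median of each list as a bar. The members and the 5 lists of the neurogenic lineage centre within 0.10 of 0 in each panel, while the meninges list is displaced in ME vs CONT (0.92) and IE vs ME (-0.91) and the choroid plexus list is displaced in each panel.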

How the data were processed

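The 6 arrays were scanned and read by the authors with Agilent Feature Extraction, version 9.5.3.1 for the slide with CONT and 11.0.1.1 for the IE vs ME slide per the file headers. The log10 ratio of Cy5 over Cy3 deposited by the authors was background-subtracted and dye-normalized by the software. The deposited p-value is the software's own for each spot, and sets the channels of a single array against each other. The intensity values deposited are raw and processed signals on a linear scale. The authors' value table holds log10 ratios of the processed signals, with the sign changed for the arrays with exchanged dyes. The files of the IE vs ME slide were joined to gene names by probe name.

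Control features (1639 of 45018) and spots marked as outliers were left out, spots of a probe were averaged, and ratios were turned to log2 and to the numerator by the dyes in the labels. The labels number the pools 1 and 2 within a dye swap, but according to the methods the RNA of 5 rats made 1 pool per group. The methods were followed, so each comparison is 1 replicate with no test across rats. As arrays have no depth, the share of spots well above background (66.5% to 74.4% of spots per array for Cy3 and Cy5 together) is given, and the number of arrays limits the precision. Members and lists were chosen with earlier results of these data known. All probes of the members are described. From the 5 neurogenic lists, called probes and the 3 probes per comparison with the largest mean among those well above background with 1 sign on both arrays are named. One item that this rule takes is not reported here. From the other 8 lists, to save space, only some of the called probes are named. Matching of list genes by RefSeq (GRCr8) record and unambiguous synonym, and the probes of Sox2 and Eomes under other names, were added after the data were seen. Alternatives were run with Python 3.11.15, R 4.3.3 and limma 3.58.1, the latter with normexp (offset 50), loess and moderated variances with an intensity trend. Calls and the limma fit were tested on simulated data.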

Additional observations from a re-analysis of the deposited data

Results flagged for a closer look

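Sox11 had opposite signs in the exercise groups: ME over CONT was 0.1088 on the log2 scale with both arrays above 0, and IE over CONT was -0.0913 with both arrays below 0. The difference between ME and IE was not tested, since each group is 1 pool. Measured directly, IE over ME had the other sign (0.22 ± 0.28, SD of 2 arrays), and in the joint fit both ratios against CONT changed sign. Over all probes well above background, 28.6% in ME vs CONT and 28.2% in IE vs CONT had 1 sign on both arrays.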

How the results depend on the processing

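No paired analysis was possible because the RNA of a group forms a single pool. No member probe and no probe of the 5 neurogenic lists was called under any alternative run for it. Calls were repeated on each array alone, in the joint fit, with outlier spots kept, with ratios from the authors' value table, with normexp or no background correction before loess, by the mean fold of the pair, without dim probes and without the p threshold, and the lists were not run for the mean fold, the filter, single arrays or the joint fit. The median of the members in ME vs CONT, -0.0071 over the pair, was 0.0020 without array 2 and 0.0796 without array 1. It moved by more than the spread of the arrays (0.0549, the SD of these 2 medians) only in the latter case. Because the spread is made from the single-array medians, leaving out an array is no separate check against it. The medians of the other comparisons moved by less than their own spread of this kind under every alternative. The median difference of the routes to IE over ME was 0.0306, and it ran from 0.0176 to 0.0306 under the alternatives run for it. Sox11 was at 0.052 with normexp and loess and 0.031 without background subtraction in ME over CONT, and at -0.044 and -0.013 in IE over CONT. Counts over all probes depended on the rule. For ME vs CONT, 50 probes were called, 404 without the p threshold, 108 by the mean fold, 15 with normexp and loess, 20 without background subtraction, 277 in the joint fit and 649 to 878 on single arrays. For IE vs CONT, 12 were called, and 273, 59, 6, 6, 211 and 585 to 758 in the same order. For IE vs ME, 30 were called, 435 without the p threshold, 218 by the mean fold, 18 without background subtraction, 273 in the joint fit and 3172 to 3226 on single arrays. The cause of these shifts was not tested. Signal over background limits Prox1, Sox11, the dim Nes probe and Eomes.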
